A study of Mus musculus with 26 samples.

Results

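The transcripts of 10 genes of Wnt reception were followed in cultured osteoblasts, the bone-forming cells, of the mouse femur. They are the co-receptor genes Lrp4, Lrp5 and Lrp6, the tyrosine kinase-like receptor genes Ryk, Ror1, Ror2 and Ptk7, the R-spondin receptor gene Lgr4, and Rspo2 and Rspo3, which encode secreted R-spondin ligands and not receptors. They were chosen by symbol from the 26264 gene symbols of the deposited RNA count table, with earlier results of these data known. All 10 passed the filter on low counts that left 16566 genes tested, and their lowest count in any library was 38, for Ror1. RNA had been sequenced in 18 libraries, in 6 groups of 3.

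CKO-OLD and CKO-YOUNG came from Kdm2b fl/fl mice with Ocn-cre and the Ai14 reporter, a conditional knockout that removes the CxxC domain of KDM2B; this domain lets PRC1.1, a Polycomb complex, dock on DNA. CON-YOUNG came from mice with Ocn-cre and Ai14 alone. CON-OLD-iBP is, by its label, an old control with iBP; neither the meaning of iBP nor the genotype of these mice is stated. OLD and YOUNG mice were C57BL/6J, aged 18 and 3 months; ages in months are not given for the other groups. All cells had been grown in serum-containing medium. Old mice of the knockout line without treatment or deletion were not among the groups analysed here, so CKO-OLD was set against OLD, which lacks the driver and the reporter. Whether each replicate is an animal or culture of its own is not stated, so the p-values reflect how far these libraries spread. Within OLD and within YOUNG the libraries differed in sex, as read from transcripts below, so they cannot all be copies of the same sample. Among libraries with the same sex transcripts that spread may be purely technical.

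In canonical Wnt signalling a Wnt ligand joins a Frizzled receptor to LRP5 or LRP6, which stops the breakdown of beta-catenin and lets it switch on target genes. R-spondins bind LGR receptors and clear the ubiquitin ligases ZNRF3 and RNF43, which would otherwise remove Frizzled from the cell surface, while ROR1, ROR2, RYK and PTK7 carry Wnt signals into beta-catenin-independent and planar polarity pathways. In bone, loss of LRP5 causes low bone mass in humans and mice, and sclerostin, the osteocyte product of Sost, blocks LRP5 and LRP6 with the help of LRP4.

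The CxxC domain of KDM2B binds unmethylated CG dinucleotides, so promoter sequence was read for the genes on which the results turn: Ryk, the 1 gene that passed the test in a comparison, and Ror2 and Ptk7, which varied together over the libraries. Ryk passed in CKO-OLD against CKO-YOUNG, which has the knockout on both sides and so does not measure its effect. None of the 10 genes passed in a contrast of knockout with control. RefSeq promoters of the GRCm38.p6 build, each running from 250 bases before to 50 after the gene's start, were matched by symbol for 5 of the 10 genes. The CG dinucleotides are in capitals; CG reads the same on both strands and its occurrences cannot overlap. The sequences lie at chr9:102834670-102834969 on the + strand (Ryk), chr13:53286075-53286374 on the - strand (Ror2) and chr17:46629455-46629754 on the - strand (Ptk7).
Ryk: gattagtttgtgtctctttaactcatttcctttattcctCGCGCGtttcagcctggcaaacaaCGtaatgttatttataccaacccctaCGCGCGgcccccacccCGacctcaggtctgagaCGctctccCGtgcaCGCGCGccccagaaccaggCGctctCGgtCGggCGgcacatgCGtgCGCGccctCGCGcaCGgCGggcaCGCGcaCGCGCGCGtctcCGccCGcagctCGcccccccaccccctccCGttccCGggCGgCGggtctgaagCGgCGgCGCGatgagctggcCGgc
Ror2: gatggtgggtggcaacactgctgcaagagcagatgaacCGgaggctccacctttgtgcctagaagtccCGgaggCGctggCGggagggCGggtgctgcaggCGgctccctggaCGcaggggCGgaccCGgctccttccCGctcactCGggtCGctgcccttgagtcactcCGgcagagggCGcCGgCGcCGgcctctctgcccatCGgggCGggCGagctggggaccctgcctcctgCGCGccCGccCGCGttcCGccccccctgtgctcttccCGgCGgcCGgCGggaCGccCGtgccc
Ptk7: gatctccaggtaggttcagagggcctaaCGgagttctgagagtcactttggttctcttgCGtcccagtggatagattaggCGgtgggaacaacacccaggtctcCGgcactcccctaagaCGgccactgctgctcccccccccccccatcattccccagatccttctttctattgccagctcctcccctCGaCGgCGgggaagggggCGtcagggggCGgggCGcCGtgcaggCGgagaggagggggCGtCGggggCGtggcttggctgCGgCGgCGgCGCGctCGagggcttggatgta
The Ryk promoter held 42 CG, and 3.03% of 32851 mouse promoters of this length held at least as many. Ror2 had 32 (9.52% of promoters), Ptk7 22 (23.1%), Lgr4 18 (29.7%) and Ror1 10 (43.5%), against a median of 7. These counts describe the reference sequence; KDM2B binding and DNA methylation were not measured in the files used here, and the H2AK119ub1 libraries of the series were not analysed here.

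Total counts ran from 46.27 to 77.7 in units of 1e6, so that 1 count was worth 0.0127 to 0.0203 CPM (counts per 1e6, with TMM-scaled library sizes). Some differences between libraries cut across the groups. Malat1, a nuclear RNA, lay above 0.05% of the counts in CKO-YOUNG 3, CON-YOUNG 3, OLD 2, YOUNG 3 and all libraries of CKO-OLD and CON-OLD-iBP, and below it in the other 8. CKO-YOUNG 3 held both Xist (372 CPM) and the Y-linked gene Ddx3y (21.3 CPM). YOUNG 1, YOUNG 2, OLD 1 and OLD 3 held Xist at 391 to 481 CPM and Ddx3y at 0 CPM. Every remaining library held Ddx3y at 36.2 to 91.8 CPM and Xist at 0.404 CPM or less. Within OLD and YOUNG the split by Malat1 was therefore also a split by sex, as read from these transcripts. OLD 1 and OLD 3 differed by 6.23 times counting noise, against at least 16 times in every other pair of 1 group. Summed macrophage and monocyte markers (22 genes) were 0.152% to 0.655% of the counts in CKO-OLD, 0.015% to 0.109% in CKO-YOUNG, 0.0205% to 0.0507% in CON-YOUNG, 0.0533% to 0.107% in CON-OLD-iBP, 0.155% to 1.2% in OLD and 0.367% to 1.67% in YOUNG. Col1a1, Runx2 and Sp7 were expressed in all 18 libraries. Bglap, the osteocalcin gene whose promoter drives Ocn-cre, reached at most 0.306 CPM in CKO-YOUNG and 9.89 CPM in CON-YOUNG, while the remaining libraries held 25.2 to 83.6 CPM. Kdm2b was at 23.4 to 58.2 CPM in the 6 knockout libraries and 16.2 to 52.9 CPM in the other 12, and a count over the whole gene does not check the deletion of 1 domain.

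**Figure D1:**
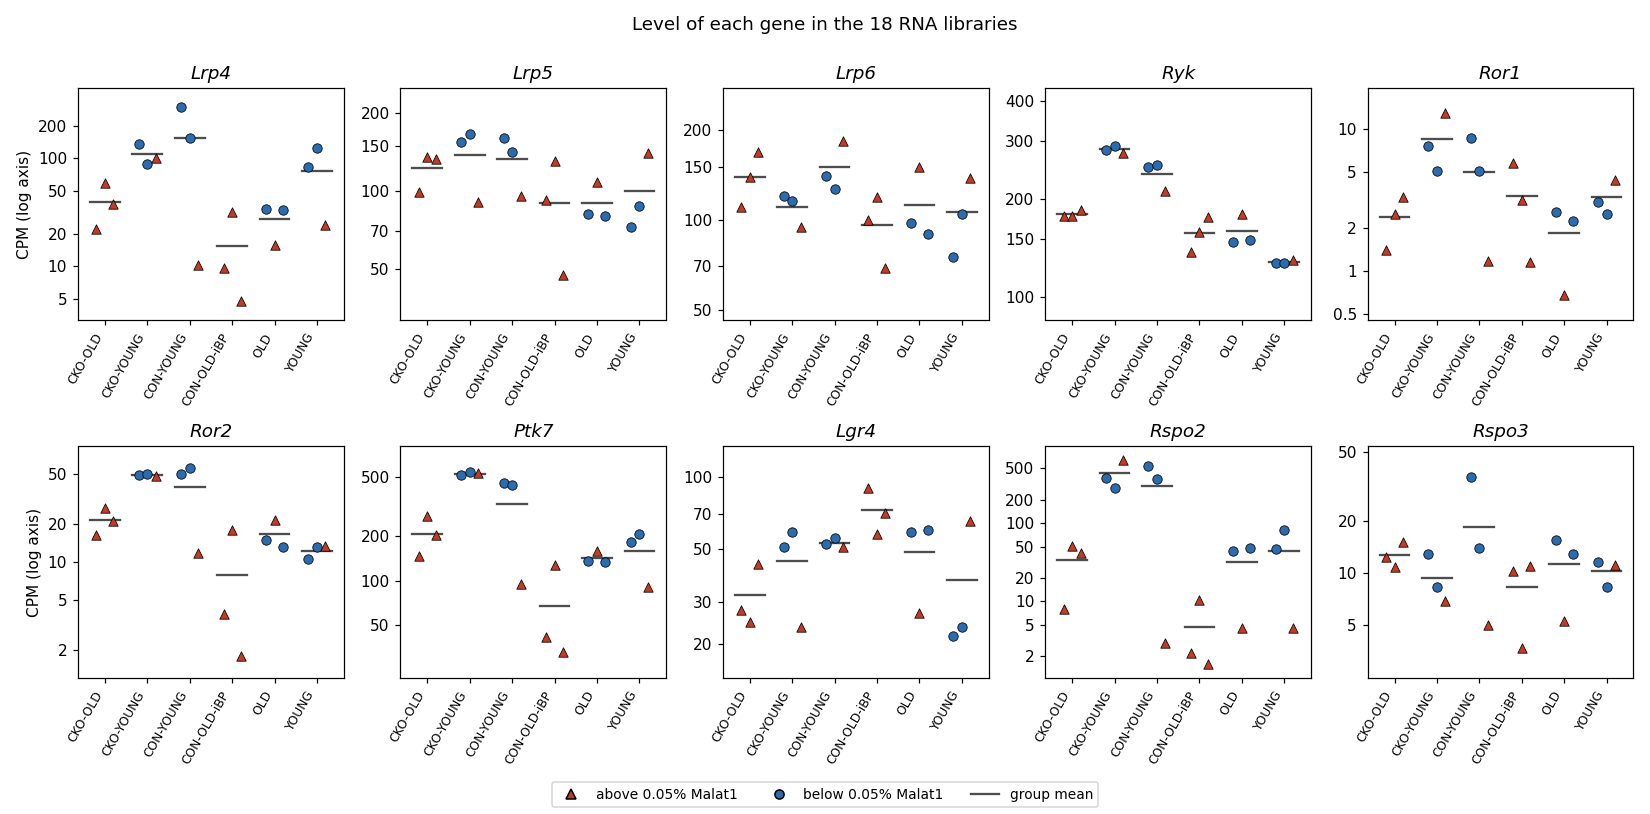
Level of each gene in CPM (log axis) in the 18 libraries, by group; points are libraries, bars are group means, and triangles and circles mark libraries above and below 0.05% Malat1. Ryk libraries lie close together within each group, whereas Rspo2 spans 1.56 to 646 CPM.

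The genes ranged from steady to variable. The SD of log2 CPM over the 18 libraries was 0.377 for Lrp6, 0.412 for Ryk and 0.481 for Lrp5, below the median of 0.59 over all genes tested. It was 0.648 for Lgr4 and 0.732 for Rspo3, and 1.1 to 1.59 for Ror1, Ptk7, Ror2 and Lrp4. Rspo2 stood at 2.88, higher than in 96.4% of the genes tested, with a 414-fold range from CON-OLD-iBP 3 to CKO-YOUNG 3. Ryk differed from the other steady genes in that group labels accounted for 94.1% of its log2 variance, against 40.4% for Lrp6 and 33.5% for Lrp5.

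Among the co-receptors, Lrp5 and Lrp6, which transmit the canonical signal, kept within narrow limits. Lrp5 had 99, 135 and 133 CPM in CKO-OLD, 155, 167 and 90.6 in CKO-YOUNG, 161, 142 and 95.6 in CON-YOUNG, 91.9, 131 and 47.2 in CON-OLD-iBP, 81.6, 108 and 80 in OLD, and 72.4, 87.1 and 140 in YOUNG. Lrp6 had 110, 139 and 169 CPM in CKO-OLD, 120, 116 and 94.8 in CKO-YOUNG, 140, 127 and 184 in CON-YOUNG, 100, 119 and 69.1 in CON-OLD-iBP, 97.5, 150 and 89.6 in OLD, and 75, 105 and 138 in YOUNG. For both genes every group overlapped its neighbour in the order of group means, and the lowest library was CON-OLD-iBP 3. Over the libraries their centred log2 CPM differed by 0.334 (root mean square), the smallest value of the 45 pairs among the 10 genes, where 0.594 would follow if 2 genes of these spreads were unrelated.

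Lrp4, which anchors sclerostin in bone, varied 62.5-fold. It had 22.1, 58.5 and 37.9 CPM in CKO-OLD, 136, 88.9 and 101 in CKO-YOUNG, 297, 155 and 10.2 in CON-YOUNG, 9.58, 31.8 and 4.74 in CON-OLD-iBP, 34, 15.7 and 33.2 in OLD, and 82.2, 124 and 24 in YOUNG. Within CON-YOUNG, OLD and YOUNG the lowest library was in each case the 1 above 0.05% Malat1, by 22.1-fold, 2.14-fold and 4.3-fold below the mean of the other 2. In CKO-YOUNG that library lay between the others. Every group overlapped its neighbour in the order of means.

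Among the kinase-like receptors, Ryk, a receptor that binds Wnt ligands through its WIF domain, was the gene most clearly ordered by group. It had 177, 177 and 185 CPM in CKO-OLD, 282, 291 and 277 in CKO-YOUNG, 251, 254 and 211 in CON-YOUNG, 137, 158 and 176 in CON-OLD-iBP, 147, 180 and 149 in OLD, and 127, 127 and 130 in YOUNG. From high to low the means were 284 ± 7.26 CPM in CKO-YOUNG, 239 ± 24 in CON-YOUNG, 180 ± 4.43 in CKO-OLD, 159 ± 18.6 in OLD, 157 ± 19.6 in CON-OLD-iBP and 128 ± 1.59 in YOUNG (SD, n = 3 each). CKO-OLD, OLD and CON-OLD-iBP overlapped along this order, and the other neighbours did not.

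Ptk7 encodes a pseudokinase of planar polarity signalling, and Ror2 a receptor for WNT5A. Ptk7 had 146, 273 and 202 CPM in CKO-OLD, 512, 538 and 529 in CKO-YOUNG, 451, 443 and 95.2 in CON-YOUNG, 41.7, 127 and 33 in CON-OLD-iBP, 135, 159 and 133 in OLD, and 182, 206 and 90.1 in YOUNG. Ror2 had 16.4, 26.9 and 21.2 CPM in CKO-OLD, 49.4, 50.1 and 47.8 in CKO-YOUNG, 50, 55.5 and 11.8 in CON-YOUNG, 3.9, 17.8 and 1.8 in CON-OLD-iBP, 15.1, 21.7 and 13.1 in OLD, and 10.5, 13.2 and 13.3 in YOUNG. For both genes CKO-YOUNG was uniformly high, CON-YOUNG 3 fell short of the other CON-YOUNG libraries by 4.7-fold for Ptk7 and 4.46-fold for Ror2, and CON-OLD-iBP 1 and 3 were lowest of all. They parted in YOUNG, where YOUNG 3 was the lowest library for Ptk7 and the highest for Ror2. Their centred log2 CPM differed by 0.398, where 1.72 would follow if unrelated. For Ptk7, every CKO-YOUNG library was above all of CON-YOUNG, the next group, and every CON-OLD-iBP library below all of OLD, the group before it, and all other neighbours overlapped; for Ror2 every group overlapped its neighbour.

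Ror1, the other ROR receptor, had few counts in some libraries. It had 1.41, 2.54 and 3.32 CPM in CKO-OLD, 7.63, 5.07 and 13 in CKO-YOUNG, 8.67, 5.11 and 1.18 in CON-YOUNG, 5.82, 3.17 and 1.16 in CON-OLD-iBP, 2.62, 0.672 and 2.25 in OLD, and 3.06, 2.51 and 4.4 in YOUNG. CKO-YOUNG 3 was the highest library and OLD 2 the lowest, and every group overlapped its neighbour.

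In the R-spondin branch, Rspo2, a ligand that potentiates Wnt signalling and is known for its part in limb formation, had the widest range. It had 7.98, 51.5 and 41.6 CPM in CKO-OLD, 374, 281 and 646 in CKO-YOUNG, 533, 370 and 2.91 in CON-YOUNG, 2.18, 10.5 and 1.56 in CON-OLD-iBP, 44, 4.62 and 47.6 in OLD, and 46.4, 81.8 and 4.63 in YOUNG. The group mean therefore hid single libraries: the 1 above 0.05% Malat1 was 155-fold below the mean of the other 2 in CON-YOUNG, 9.92-fold in OLD and 13.8-fold in YOUNG, but 1.97-fold above it in CKO-YOUNG. Summed smooth muscle and pericyte markers (11 genes) were 0.612% to 0.704% of the counts in CKO-YOUNG, 0.565% and 0.675% in CON-YOUNG 1 and 2 and 0.268% in CON-YOUNG 3. In CKO-OLD they were 0.166% to 0.22%, and CON-OLD-iBP had 0.11% to 0.247%. In OLD they were highest in OLD 2 (0.251%, beside 0.206% and 0.208%), the OLD library lowest in Rspo2, and in YOUNG lowest in YOUNG 3 (0.12%, beside 0.348% and 0.42%). Marrow stroma and fat cell markers (10 genes, each detected in every group) were lowest in the library lowest in Rspo2 in CON-YOUNG (0.0435%, beside 0.299% and 0.118%), OLD (0.0387%, beside 0.255% and 0.248%) and YOUNG (0.0398%, beside 0.166% and 0.15%). In CKO-OLD (0.0419% to 0.0597%) and CKO-YOUNG (0.0715% to 0.102%) the library lowest in Rspo2 also had the lowest sum. In CON-OLD-iBP (0.0267% to 0.0561%) that library had the highest sum. Chondrocyte markers (14 genes, not all detected in every group) were highest in CON-YOUNG 3 (0.507%, beside 0.105% and 0.066%) and YOUNG 3 (1.59%, beside 0.062% and 0.0588%). They were lowest in OLD 2 (0.0892%, beside 0.124% and 0.128%). In the remaining groups the library lowest in Rspo2 lay between the others. The part of these marker lists in the Rspo2, Ptk7 and Ror2 levels was not tested. In bulk RNA, fewer cells of a type and less RNA per cell cannot be told apart.

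Rspo3, the other ligand, varied less. It had 12.3, 10.8 and 15 CPM in CKO-OLD, 12.8, 8.25 and 6.89 in CKO-YOUNG, 35.9, 13.9 and 5.04 in CON-YOUNG, 10.2, 3.71 and 11 in CON-OLD-iBP, 15.5, 5.27 and 12.9 in OLD, and 11.6, 8.25 and 11.1 in YOUNG. The library above 0.05% Malat1 was the lowest in CON-YOUNG and OLD here too, by 4.94-fold and 2.69-fold below the mean of the other 2, and also in CKO-YOUNG (1.53-fold), but not in YOUNG. Every group overlapped its neighbour, and group labels accounted for 16.5% of the log2 variance of Rspo3. Lgr4, the receptor for both ligands, had 27.9, 24.8 and 43.4 CPM in CKO-OLD, 50.9, 58.9 and 23.7 in CKO-YOUNG, 52.5, 55.6 and 50.9 in CON-YOUNG, 90.2, 57.9 and 70.9 in CON-OLD-iBP, 58.9, 27.1 and 60.4 in OLD, and 21.6, 23.6 and 65.9 in YOUNG. CON-OLD-iBP led for Lgr4 with 73 ± 16.3 CPM (SD, n = 3), above all libraries of CON-YOUNG, the next group, and the remaining neighbours overlapped.

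**Figure D2:**
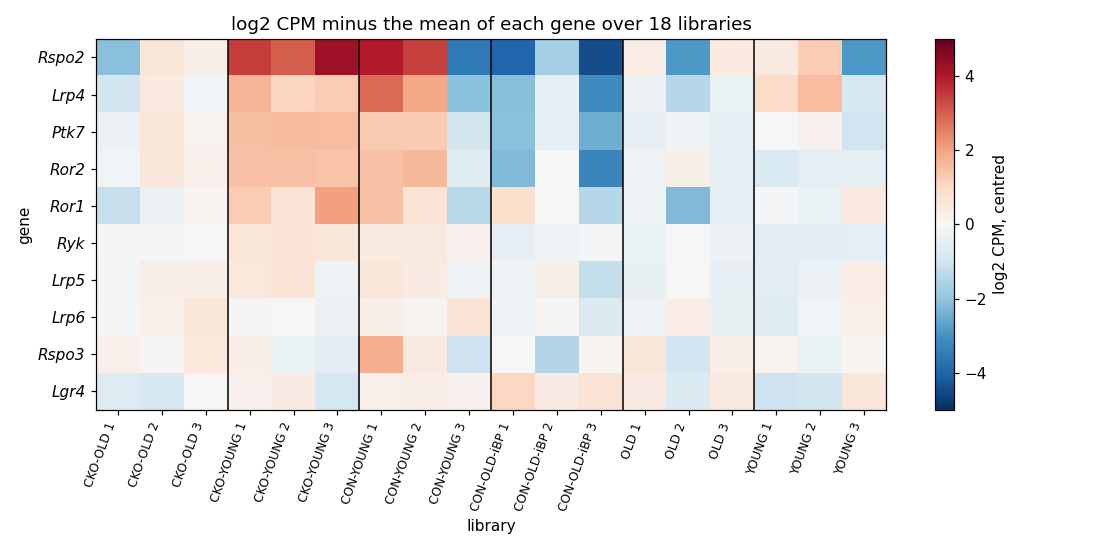
Log2 CPM of the 10 genes (rows) in the 18 libraries (columns), each gene centred on its own mean over the libraries; black lines part the groups. Rspo2, Lrp4, Ptk7 and Ror2 are high in CKO-YOUNG and in CON-YOUNG 1 and 2 and lowest in CON-OLD-iBP 1 and 3, while Lrp5, Lrp6 and Ryk vary little.

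CKO-YOUNG against CON-YOUNG asks how the young knockout differs from its control. None of the 10 genes passed the adjusted p threshold of 0.05 in edgeR's quasi-likelihood test, where 0.127% of all genes tested passed (21), and none of the 10 had an unadjusted p under 0.05, against 907 of all genes. DESeq2 and limma-voom passed none of the 10 either. The median log2 fold change was 0.15 over the 10 genes and -0.01 over all genes. Ryk (284 ± 7.26 CPM in CKO-YOUNG, 239 ± 24 CPM in CON-YOUNG, log2 fold change 0.25, SE 0.13) and Ptk7 (526 ± 12.8 CPM in CKO-YOUNG, 330 ± 203 CPM in CON-YOUNG, 0.67, SE 0.54) were higher in every CKO-YOUNG library than in any CON-YOUNG library, and 5.32% of all genes were separated in that direction. Lrp6 (110 ± 13.6 CPM in CKO-YOUNG, 150 ± 29.9 CPM in CON-YOUNG, -0.45, SE 0.27) was lower in every CKO-YOUNG library, as were 3.19% of all genes (SD, n = 3 per group).

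Several of these values differed between libraries above and below 0.05% Malat1. For Rspo2 the log2 fold change was 0.52 over all libraries (SE 1.28), -0.46 between the 2 CKO-YOUNG and the 2 CON-YOUNG libraries below 0.05% Malat1, and 7.82 between CKO-YOUNG 3 and CON-YOUNG 3 (adjusted p in edgeR 0.128). For Ptk7 these values were 0.67, 0.23 and 2.50, and for Lrp4 -0.50, -1.01 and 3.33. For Ror1 they were 0.78, -0.12 and 3.48, and for Ror2 0.33, -0.08 and 2.04. Without CON-YOUNG 3 the value over the remaining libraries was -0.06 for Rspo2, 0.24 for Ptk7 and 0.32 for Ror1. Without CKO-YOUNG 3 it was 0.12 for Rspo2, 0.67 for Ptk7 and 0.35 for Ror1. The last value of each gene rests on 1 library against 1, and its test takes the spread from the other groups. CKO-YOUNG 3, which carried Xist and Ddx3y together, also differed from both other CKO-YOUNG libraries in other R-spondin receptors, with 13.7 CPM of Lgr5 where they had 0.848 and 1.17, and 1.2 CPM of Lgr6 where they had 54.7 and 94.4.

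CKO-OLD against OLD sets the aged knockout beside aged C57BL/6J cells, and genotype, driver, reporter and mouse line cannot be told apart in it. Sex was not balanced either. OLD 1 and OLD 3 held Xist without Ddx3y, whereas OLD 2 and all CKO-OLD libraries held Ddx3y with Xist near 0. None of the 10 genes passed, against 0.00604% of all genes (1 gene), and none had an unadjusted p under 0.05, against 1352 of all genes. DESeq2 passed none of the 10. Log2 fold changes were positive for 9 of the 10, with a median of 0.34 against -0.01 over all genes, and each group overlapped the other for all 10. Lgr4 was the exception in direction (32.1 ± 9.95 CPM in CKO-OLD, 48.8 ± 18.8 CPM in OLD, log2 fold change -0.61, 95% interval -1.53 to 0.32). Its direction turned to 0.26 when only libraries above 0.05% Malat1 were used, where OLD 2 had 27.1 CPM of Lgr4. For Rspo2 the value was 0.07 over all libraries and 2.89 in that setting, which leaves OLD 2 alone on the OLD side.

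Averaged over both ages, the knockout contrast passed none of the 10 genes, against 0.531% of all genes (88). Ryk had the smallest p of the 10 (unadjusted 0.0375, edgeR adjusted 0.539), at 232 ± 57.2 CPM in the 6 knockout libraries and 199 ± 47.8 CPM in the 6 others (SD) and a log2 fold change of 0.21 (95% interval 0.01 to 0.41). The intervals bound the other steady genes too: Lrp5 at -0.28 to 0.77 and Lrp6 at -0.47 to 0.34, on the log2 scale. Those of Rspo2 (-1.64 to 2.23) and Lrp4 (-1.31 to 1.32) were wider. In the test of whether the knockout contrast differed between ages, 0 of the 10 genes and 0% of all genes passed (0 of 16566, with 796 at an unadjusted p under 0.05), and Lrp6 had the smallest p, with a knockout contrast 0.76 higher at the old age on the log2 scale (SE 0.38, edgeR adjusted p 0.963). DESeq2 passed none of the 10 in either of these tests. Both tests take CON-YOUNG as the young control and OLD, of another mouse line and without driver or reporter, as the old control. Mouse line, driver, reporter and sex therefore cannot be told apart from the deletion, or from age, in them.

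**Figure D3:**
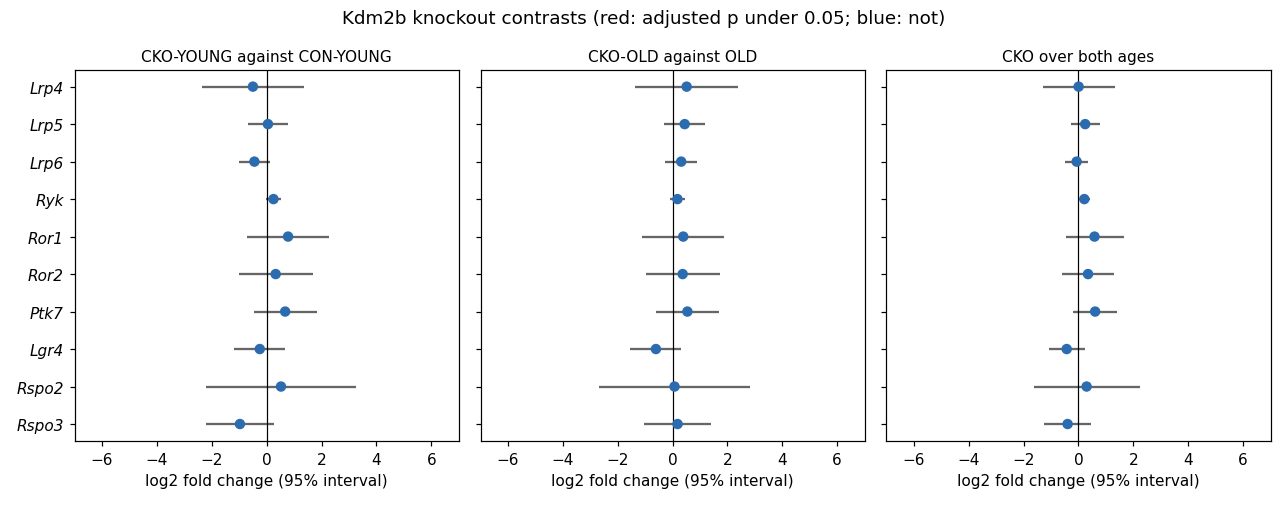
Log2 fold change (x axis, knockout over control) of each gene in the knockout contrasts; points are edgeR estimates and lines 95% intervals. All points are blue, since none passed an adjusted p of 0.05, and intervals are narrow for Ryk and wide for Rspo2.

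OLD against YOUNG compares 18 with 3 months in C57BL/6J cells. None of the 10 genes passed and 0% of all genes did (0 of 16566, with 554 at an unadjusted p under 0.05); DESeq2 passed none of the 10. Ryk was higher in every OLD library than in any YOUNG library, as were 5.73% of all genes, at 159 ± 18.6 CPM in OLD and 128 ± 1.59 CPM in YOUNG (SD, n = 3 each; log2 fold change 0.31, SE 0.13, edgeR adjusted p 1, unadjusted 0.0326). Lrp4 had the largest estimate, -1.47 (SE 0.89), with 27.7 ± 10.3 CPM in OLD and 76.7 ± 50.2 CPM in YOUNG, groups that overlapped.

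For Lgr4 the age contrast turned with the kind of library. In OLD and YOUNG the libraries below 0.05% Malat1 were also those with Xist, and those above it the ones with Ddx3y. Malat1 level and sex therefore cannot be told apart here. Below 0.05% Malat1, OLD 1 and 3 had 58.9 and 60.4 CPM, and YOUNG 1 and 2 had 21.6 and 23.6 CPM, a log2 fold change of 1.40 (edgeR adjusted p 0.0437). That fit was chosen after seeing the data, and 68 of all genes passed in it, against 0 over all libraries. Above 0.05% Malat1, OLD 2 had 27.1 CPM against 65.9 CPM in YOUNG 3, a log2 fold change of -1.28. Over all libraries the value was 0.40 (SE 0.43, edgeR adjusted p 1), and OLD 1 and OLD 3 are the pair that was closest to counting noise. The Lgr4 difference between the kinds of library was itself not tested.

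CON-OLD-iBP against OLD sets the iBP group beside OLD, with genotype and treatment not separable from the labels. Sex was unbalanced here too, since all CON-OLD-iBP libraries held Ddx3y with Xist near 0, as did OLD 2 but not OLD 1 and OLD 3. None of the 10 genes passed, against 0.0241% of all genes (4), and none had an unadjusted p under 0.05, against 3869 of all genes; DESeq2 passed none of the 10. Rspo2 had the largest estimate (4.75 ± 4.99 CPM in CON-OLD-iBP, 32.1 ± 23.8 CPM in OLD, log2 fold change -2.75, SE 1.38, edgeR adjusted p 0.242), but OLD 2 lay among the CON-OLD-iBP libraries. Ptk7 was lower in every CON-OLD-iBP library than in any OLD library, as were 15.8% of all genes, at 67.4 ± 52.2 CPM in CON-OLD-iBP and 142 ± 14.5 CPM in OLD (-1.08, SE 0.54, edgeR adjusted p 0.245). CON-OLD-iBP 2 stood above the other iBP libraries for Ror2, and without it Ror2 passed at -2.58 (edgeR adjusted p 0.0491), in a fit in which 118 of all genes passed.

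CKO-OLD against CON-OLD-iBP compares groups whose libraries are all above 0.05% Malat1. In it 1.29% of all genes passed (213) and none of the 10 did. An unadjusted p under 0.05 was found for 3 of the 10, against 3254 of all genes (19.6%). Ptk7 had 207 ± 63.6 CPM in CKO-OLD and 67.4 ± 52.2 CPM in CON-OLD-iBP (SD, n = 3 each), a log2 fold change of 1.62 (SE 0.55, edgeR adjusted p 0.132). Lgr4 had 32.1 ± 9.95 CPM in CKO-OLD and 73 ± 16.3 CPM in CON-OLD-iBP, -1.19 (SE 0.44, edgeR adjusted p 0.163), and Ror2 had 21.5 ± 5.25 CPM in CKO-OLD and 7.84 ± 8.7 CPM in CON-OLD-iBP, 1.45 (SE 0.65, edgeR adjusted p 0.229). Every CKO-OLD library was above every CON-OLD-iBP library for Ptk7 and Ryk, as for 16% of all genes, and below for Lgr4, as for 14.5%. Ptk7 passed with DESeq2 (adjusted p 0.0393), where 1453 of all genes passed. Ptk7 and Ror2 passed without CON-OLD-iBP 2 (2.50 and 2.94; edgeR adjusted p 0.0348 and 0.0211), where 512 of all genes passed.

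CKO-OLD against CKO-YOUNG compares knockout cells of both ages, and all CKO-OLD libraries but only 1 of 3 CKO-YOUNG libraries lie above 0.05% Malat1. Ryk was lower in CKO-OLD, at 180 ± 4.43 CPM against 284 ± 7.26 CPM in CKO-YOUNG (SD, n = 3 each). The log2 fold change was -0.66 (SE 0.13, 0.634-fold, edgeR adjusted p 0.0392). In C57BL/6J cells Ryk was instead higher in OLD (159 ± 18.6 CPM) than in YOUNG (128 ± 1.59 CPM). CON-YOUNG, without the deletion, was also high, at 239 ± 24 CPM. Ryk was the 1 of the 10 genes to pass in CKO-OLD against CKO-YOUNG, where 0.7% of all genes passed (116). Its estimate stayed between -0.68 and -0.56 in 14 alternative fits, but it passed in only 5 of them (adjusted p 7.9e-05 with DESeq2 to 0.336 with libraries above 0.05% Malat1 alone). Leaving out any 1 of CKO-OLD 1, 2 and 3 or CKO-YOUNG 1 and 2 lost the call (edgeR adjusted p 0.128 to 0.173, with 0 genes passing in all), and leaving out CKO-YOUNG 3 kept it (0.0135), in a fit in which 2655 of all genes passed.

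A further 5 genes had every CKO-OLD library below every CKO-YOUNG library without passing in edgeR: Rspo2 (33.7 ± 22.8 CPM in CKO-OLD, 433 ± 190 CPM in CKO-YOUNG, log2 fold change -3.69, adjusted p 0.138), Ror1 (-1.82, 0.144), Ptk7 (-1.35, 0.151), Ror2 (-1.19, 0.259) and Lrp4 (-1.46, 0.32). With Ryk these are 6 of the 10 genes, beside 15.2% of all genes separated in that direction. The median log2 fold change was -0.93 over the 10 genes and 0.00 over all genes. Rspo2 passed with DESeq2 (-3.66, adjusted p 0.037), as did 2041 of all genes. Rspo2, Ptk7 and Ror2 passed in edgeR when the 6 libraries compared were fitted alone (adjusted p 0.0382, 0.0357 and 0.0337), as did 736 of all genes. Smooth muscle and pericyte markers, all 11 of them detected in both groups, summed to 0.166% to 0.22% of the counts in CKO-OLD and 0.612% to 0.704% in CKO-YOUNG. Other lists differed too. Macrophage and monocyte markers were higher in CKO-OLD (0.152% to 0.655%, against 0.015% to 0.109%). Marrow stroma and fat cell markers were lower in CKO-OLD (0.0419% to 0.0597%, against 0.0715% to 0.102%). The part of these lists in the differences was not tested.

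**Figure D4:**
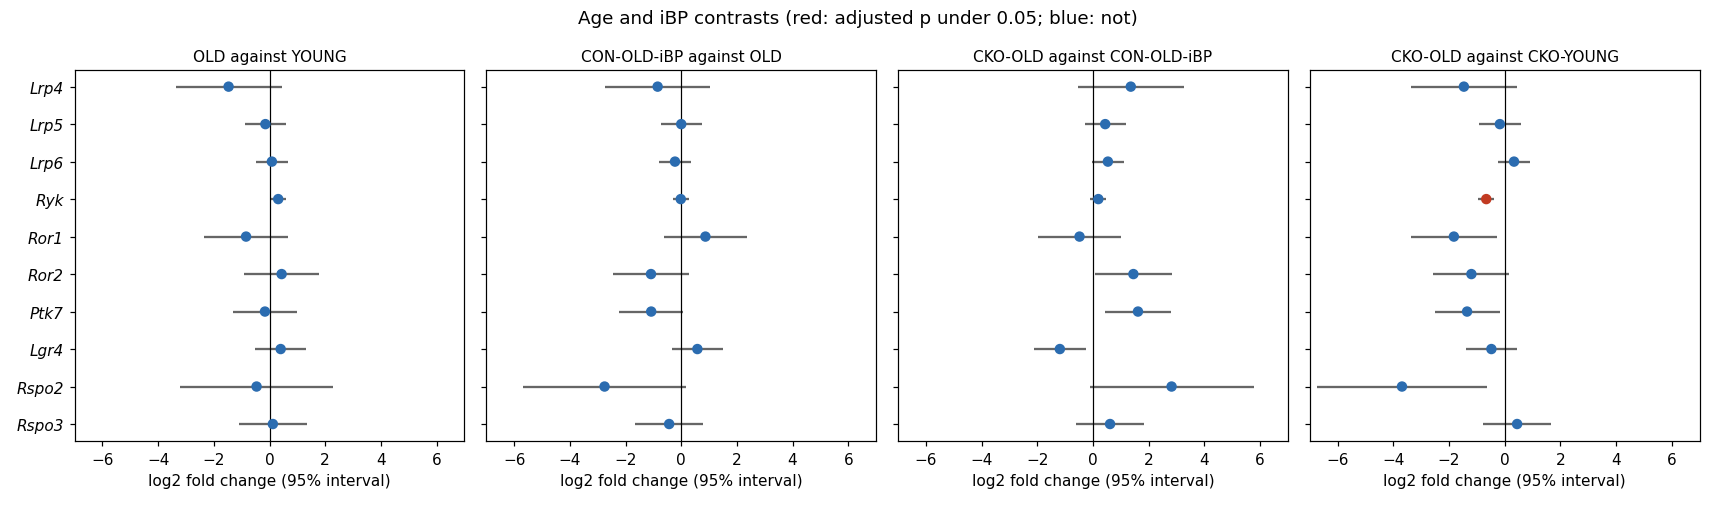
Log2 fold change (x axis, first-named group over the second) of each gene in the age and iBP contrasts; points are edgeR estimates and lines 95% intervals. Ryk in CKO-OLD against CKO-YOUNG, at -0.66, is the 1 red point, which marks an adjusted p under 0.05.

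Other genes of the pathway were counted from lists. Of 5 tested R-spondin system genes outside the 10 (Rspo1, Lgr5, Lgr6, Znrf3 and Rnf43), 9 LRP chaperone and antagonist genes and 22 beta-catenin transducers, 0 passed in any of the 8 comparisons. Of the 10 Frizzled genes, Fzd10 rose in the knockout over both ages, at 0.463, 0.123 and 0.322 CPM in CKO-OLD and 1.32, 2.24 and 1.53 CPM in CKO-YOUNG, with controls at 0.1, 0.129 and 0.144 CPM (CON-YOUNG) and 0.0579, 0 and 0 CPM (OLD) (log2 fold change 3.77, SE 0.76, edgeR adjusted p 0.0407). Its fold against OLD rests on counts near 0. CON-OLD-iBP, the other old group without a stated deletion, had 0.202, 0.22 and 0.223 CPM of Fzd10, inside the CKO-OLD range. In YOUNG, Fzd10 stood at 0.203, 0.174 and 0.792 CPM. For CKO-OLD against CON-OLD-iBP, Fzd10 passed in 0 of 14 alternative fits (log2 fold change 0.05 to 0.86). Of 16 planar polarity and WNT5A branch genes, Celsr2, a cadherin of planar polarity, rose, at 1.93, 3.28 and 3.61 CPM in CKO-OLD and 5.04, 4.52 and 5.57 CPM in CKO-YOUNG, with controls at 0.869, 1.19 and 0.0718 CPM (CON-YOUNG) and 0.13, 0.531 and 0.328 CPM (OLD) (2.99, SE 0.61, edgeR adjusted p 0.0434). Both genes stayed higher in all 20 alternative fits, but Fzd10 passed in 5 of them (adjusted p 4.86e-07 to 0.145) and Celsr2 in 6 (9.91e-06 to 0.148). The replicate block ended both calls (edgeR adjusted p 0.131 for Fzd10 and 0.1 for Celsr2).

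Feedback targets of beta-catenin passed in no comparison in edgeR's test over all libraries. Over both ages all 10 tested feedback target genes had positive estimates in the knockout, beside 46.3% of all genes (median log2 fold change 1.00, against -0.03 over all genes). Within CKO-YOUNG against CON-YOUNG and within CKO-OLD against OLD, 9 of the 10 were positive. In CKO-YOUNG, Rnf43 (0, 0.0706 and 2.87 CPM) and Lgr5 (1.17, 0.848 and 13.7 CPM) were high in CKO-YOUNG 3 alone. Rnf43 had 0.0804, 0.385 and 0.0714 CPM in CKO-OLD and 0.246, 0.336 and 0.478 CPM in OLD. Axin2, a negative feedback gene, averaged 6.01 ± 2.9 CPM in the knockout and 2.65 ± 1.12 CPM in the controls (SD, n = 6 each; log2 fold change 1.18, SE 0.44, edgeR adjusted p 0.407). Lef1, a transcription factor that partners beta-catenin, averaged 3.97 ± 4.07 CPM in the knockout and 1.02 ± 1.06 CPM in the controls (2.40, SE 0.69, edgeR adjusted p 0.199). With DESeq2, Lef1 passed in this contrast (adjusted p 0.00451, where 437 of all genes passed). It also passed in CKO-OLD against OLD (0.0455, 193 of all genes) and CON-OLD-iBP against OLD (0.00476, 2091 of all genes). Lower in the first-named group, Lef1 passed in OLD against YOUNG (0.00598, 43 of all genes) and CKO-OLD against CKO-YOUNG (0.0463, 2041 of all genes). Lef1 had 0, 0.177 and 0.313 CPM in OLD, so its folds against OLD rest on counts near 0. Axin2 levels differed by kind of library, at 3.29 to 16 CPM in the 10 libraries above 0.05% Malat1 and 1.42 to 4.59 CPM in the 8 below it. All CKO-OLD and CON-OLD-iBP libraries but only 1 of 3 OLD libraries lie above it, and its part in the Axin2 contrasts was not tested. In CON-OLD-iBP against OLD, Axin2 averaged 11.9 ± 4.39 CPM in CON-OLD-iBP and 2.86 ± 0.42 CPM in OLD (SD, n = 3 each). Its log2 fold change was 2.06 (SE 0.64, adjusted p 0.0833 in edgeR and 0.0119 in DESeq2, where 2091 of all genes passed). In that comparison 5 of the 10 feedback targets had positive estimates (median 0.28, against 0.00 over all genes).

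The genes nearest in pattern were taken as those with the smallest root mean square difference of centred log2 CPM over the 18 libraries, among 10804 genes of at least 5 CPM, as a description with no test. Those nearest Ryk were Fdxr (0.156) and Dazap1 (0.165), and those nearest Lrp5 were Mia3 (0.15) and Atp2a2 (0.161). Lamb1, a laminin chain gene, was among the nearest to both Ptk7 (0.297) and Ror2 (0.426), beside Jph1 (0.31) for Ptk7 and Ephb4 (0.403) for Ror2. Lrp6 lay nearest Minpp1 (0.168) and Pank1 (0.189), Lgr4 nearest Ivns1abp (0.359) and Vim (0.366), and Lrp4 nearest Itga9 (0.466) and Ppp1r3b (0.519). Rspo3 lay nearest Adcy2 (0.476) and Itpk1 (0.506), Ror1 nearest Hoxa6 (0.519) and Ogn (0.533), and Rspo2 had no gene closer than Rtn4rl1 (0.859) and Mmp17 (0.943).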

How the data were processed

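For 18 RNA libraries the authors deposited a table of raw counts, in whole numbers and not normalized, with 1 row per gene symbol. Per the submitters' processing notes, FastQC, Trim Galore and HISAT2 were used with the mm39 build. Not given in the sources used here are versions, counting program, annotation and strand use, so overlapping and antisense genes could not be told apart. Groups came from the submitters' titles. The genes followed, the gene lists and the library sets were chosen with earlier results of these data known.

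Low counts were removed with filterByExpr of edgeR at a minimum count of 10 and a minimum total of 15. Counts were scaled by TMM and tested with the two-sided quasi-likelihood F test (robust, 1 coefficient per group over 18 libraries, residual df 12); p-values were adjusted by Benjamini-Hochberg over 16566 genes at a threshold of 0.05. CPM used TMM library sizes. Tools were DESeq2 1.42.0, limma 3.58.1 and edgeR 4.0.16 in R 4.3.3, and pandas 2.3.3 and matplotlib 3.10.9 in Python 3.11.15. The fit was tested on simulated data. Intervals in the text cover the spread between libraries; counts were not corrected for duplicate reads.

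Named genes are the 10 chosen, Axin2 and Lef1, list genes past the threshold (at most 3 per list and comparison), and the 2 genes nearest in pattern to each of the 10. Bglap, Kdm2b, Malat1, Xist, Ddx3y, Lgr5, Lgr6 and Rnf43 are given as checks of libraries and were named after their values were seen. Libraries above 0.05% Malat1 formed 1 set and those below it 2, by mouse line. Alternatives were relative log expression factors, no filter, limma-voom, DESeq2, groups compared alone, a replicate block, each replicate left out, a term for library set, and libraries of 1 set alone. Between CKO-YOUNG and CON-YOUNG, libraries of equal replicate number deviated together (r across genes 0.152, 0.2 and 0.293), over the 0.1 taken to pair samples, though CKO-YOUNG 1 matched CON-YOUNG 2 best; with the block 0 of all genes passed there, against 21 without it, and the 10 genes stayed at 0. In each other comparison at least 1 same-numbered pair fell short of it. OLD 1 and OLD 3 were kept as 2 libraries.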

Additional observations from a re-analysis of the deposited data

How the results depend on the processing

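The count of the 10 genes passing was recomputed 126 times over the 8 comparisons and stayed within 1.5 times its first value in 110. CKO-YOUNG against CON-YOUNG, CKO-OLD against OLD, CKO over both ages and the age difference kept 0 under every alternative run. OLD against YOUNG gave 1 (Lgr4) within the libraries below 0.05% Malat1, a setting chosen after seeing the data, where 68 of all genes passed. Lgr4 turned to -1.28 in the libraries above 0.05% Malat1. Leaving out 1 replicate gave 0 to 1 in CON-OLD-iBP against OLD (Ror2, without CON-OLD-iBP 2) and 0 to 2 in CKO-OLD against CON-OLD-iBP (Ror2 and Ptk7, without the same library). CKO-OLD against CON-OLD-iBP also gave 1 with DESeq2 (Ptk7) and 2 with the replicate block (Ptk7, adjusted p 0.0449, and Lgr4, adjusted p 0.0494, both edgeR). With the block 649 of all genes passed in that comparison, against 213 without it. CKO-OLD against CKO-YOUNG, with 1 gene (Ryk), gave 0 without the filter (adjusted p 0.0531), 0 with a term for library set (0.144), 0 in libraries above 0.05% Malat1 alone (0.336), 0 with the replicate block (0.169, edgeR), 2 with DESeq2, 4 with the groups alone, and 0 to 1 on leaving out a replicate. Calls over all genes moved too, to 2041 with DESeq2, 736 with the groups alone and 0 to 2655 on leaving out a replicate, against 116. The replicate block changed no other count of the 10 genes. Numbers shared outside CKO-YOUNG and CON-YOUNG are not known to pair the samples. The causes were not tested. Of 1260 recomputed values of the 10 genes, 94 changed sign, and 0 of these belonged to a gene that had passed. The lowest count of the 10 genes was 38; whether depth or the number of libraries limits the calls was not tested.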
